A study of Ovis aries with 4 samples.

Results

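FGF7, FGF10 and FGF12 are the members of the fibroblast growth factor (FGF) family described here, across the stromal and other cells of the lactating sheep mammary gland. They were taken by symbol, and all 3 were found among the 20150 genes of the deposited count matrices, as ENSOARG00000021001 for FGF7, ENSOARG00000008545 for FGF10 and ENSOARG00000020443 for FGF12. Only 774 of the genes carry a symbol, and 4 of these symbols start with FGF, so other family members could not be looked up by name. Mammary tissue came from 4 lactating ewes, each of which gave 1 library of single cells captured in droplets (10x). The stages compared are peak lactation and late lactation, with 2 ewes each. The libraries are titled LH and LL. LL is late lactation, and LH is taken as peak lactation by elimination, since no label spells it out. The labels name the tissue for each library, and no other treatment, genotype or age was given in the sources used here.

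FGF7 and FGF10 are secreted ligands of connective tissue cells. Both bind the epithelial splice form of FGF receptor 2. In the mammary gland, as in skin and lung, fibroblasts and adipose stroma thus signal through them to the neighbouring epithelium. FGF10 also acts in the formation of mammary buds in the embryo. FGF12 carries the same protein fold but is not secreted in the usual way: it is an intracellular FGF homologous factor, best known as a partner of voltage-gated sodium channels in neurons and heart muscle.

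Cells were assigned by marker gates on unique molecular identifiers (UMIs, the counted RNA molecules). The fibroblast gate, called the DCN gate, required at least 5 UMIs of DCN, the collagen-binding proteoglycan decorin. The EDNRA/IGFBP7 gate required both the endothelin receptor EDNRA and the vessel-associated protein IGFBP7, with at least 3 UMIs together. Other gates took luminal epithelium, T cells, macrophages, blood endothelium, RELN-positive cells and mast cells, and a cell that passed several gates was left out of all of them. Levels are UMIs summed over the gated cells and scaled to 1000000 UMIs of those cells (CPM), which do not correct for gene length, so levels are compared between cells and not between genes. A positive cell held at least 1 UMI. Intervals are 95% exact Poisson limits for levels and 95% exact binomial limits for shares, and they cover counting error only.

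The matrices held 5955 and 9380 barcodes for LH replicates 1 and 2 and 12733 and 11178 for LL replicates 1 and 2, with 28015149 to 65339993 UMIs in total and a median of 2693 to 3294 UMIs per barcode. After 37104 cells were kept, the DCN gate held 223 cells in LH replicate 1, 31 in LH replicate 2, 1968 in LL replicate 1 and 1153 in LL replicate 2, an order kept below for values given 4 at a time, and the EDNRA/IGFBP7 gate held 244, 1539, 1179 and 939. LH replicate 2 therefore gave only 0.348% of its cells to the DCN gate, against 3.96 to 16.3% in the other libraries, and its 31 cells also carried 81.8 CPM of EDNRA and 419 CPM of TPM1. In the DCN gate, 7 of 16 listed fibroblast markers had a symbol and summed to 12816 to 14487 CPM, against 1033 to 1664 CPM in the EDNRA/IGFBP7 gate. GSN alone gave 7962 to 10653 CPM of the sum in the DCN gate. BGN overlapped between the gates, at 88.5 to 143 CPM against 63.2 to 97.3 CPM. The 5 of 17 markers with a symbol for pericytes, smooth muscle and myoepithelium summed to 230 to 480 CPM in the DCN gate and 1321 to 2477 CPM in the EDNRA/IGFBP7 gate. TPM1 alone gave 1197 to 2337 CPM of the latter sum. AGTR1 of the same list went the other way, at 31.2 to 51.1 CPM in the DCN gate against 0.832 to 21.8 CPM. OXTR was at most 1.3 CPM in either gate. Pairs of libraries shared 15 to 39 barcodes. Not all of the members' UMIs could be placed by these gates: for FGF12, 33.9% in LH replicate 1 and 53.9 to 56.9% in the other libraries lay in cells that passed no gate, and for FGF10 in LH replicate 2 it was 48%.

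FGF7 was found in both stromal gates. In the DCN gate its level was 252 CPM in LH replicate 1, 307 in LH replicate 2, 161 in LL replicate 1 and 222 in LL replicate 2 (251, 30, 1179 and 749 UMIs), a mean of 236 ± 60.9 CPM (SD, n = 4 ewes). EDNRA/IGFBP7-gated cells held 85.7, 138, 89 and 71 CPM (103, 639, 371 and 182 UMIs), a mean of 95.9 ± 29.1 CPM (SD, n = 4 ewes). Every library was higher in the DCN gate, and the ranges of the gates did not overlap. Of each library's FGF7 UMIs the DCN gate took 51.2, 2.23, 44.3 and 52.3% and the EDNRA/IGFBP7 gate 21, 47.5, 13.9 and 12.7%. In LH replicate 2, where few cells passed the DCN gate, the EDNRA/IGFBP7 gate carried more than the DCN gate, and 39.2% lay in cells of no gate.

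Outside the stromal gates FGF7 was mostly low. The exceptions were RELN-positive cells of LH replicate 2 (118 CPM) and cells of no gate (8.08 to 57.4 CPM). T cells, which should lack it and serve as the measure of free RNA, held 0.976, 0, 3.4 and 1.04 CPM, and 0.387, 0, 1.05 and 0.29% of them were positive, at median depths of 3535, 3028, 2867 and 2602 UMIs. The positive share was 40.4, 38.7, 36.3 and 37.6% in the DCN gate and 20.5, 28.7, 21.6 and 15.3% in the EDNRA/IGFBP7 gate. With every cell thinned to 1000 UMIs these shares were 17.3, 19.6, 14.1 and 18.6% in the DCN gate and 8.73, 12.2, 7.6 and 6.91% in the EDNRA/IGFBP7 gate, against 0.0895, 0, 0.488 and 0.131% of T cells. Shallower cells were left out of the thinned shares: 4, 7, 52 and 57 cells of the DCN gate and 1, 50, 12 and 27 of the EDNRA/IGFBP7 gate.

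By mean level the order of the gates for FGF7 was DCN, EDNRA/IGFBP7, RELN, cells of no gate, luminal, macrophage, blood endothelium and T cell. From EDNRA/IGFBP7 downward each neighbouring pair in that order overlapped in range over libraries. RELN-positive cells differed between libraries, with 118 CPM in LH replicate 2 against 4.83 to 9.32 CPM in the other libraries. The RELN gate of LH replicate 2 also held 2381 CPM of IGFBP7 and only 17.7 CPM of the endothelial receptor KDR, where the other libraries held 93.2 to 118 CPM; the part of this in the FGF7 level was not tested. In luminal cells FGF7 was 0.226, 2.57, 16.6 and 2.18 CPM. The value of LL replicate 1 stood out, and there 17 luminal cells held 3 or more FGF7 UMIs. Those 17 cells carried 41 CPM of DCN, against 39.7 CPM in luminal cells without FGF7, and 460 CPM of the epithelial adhesion gene EPCAM, against 519 CPM. Their level of LTF, the milk protein lactoferrin, was 7459 CPM against 1897 CPM. This was not seen in the other libraries. Luminal cells with 1 or 2 FGF7 UMIs held 3970 CPM of LTF in LL replicate 2, against 4455 CPM in those without FGF7. In LH replicate 2 they held 1123 CPM against 1283 CPM, and LH replicate 1 had 1 such cell.

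**Figure D1:**
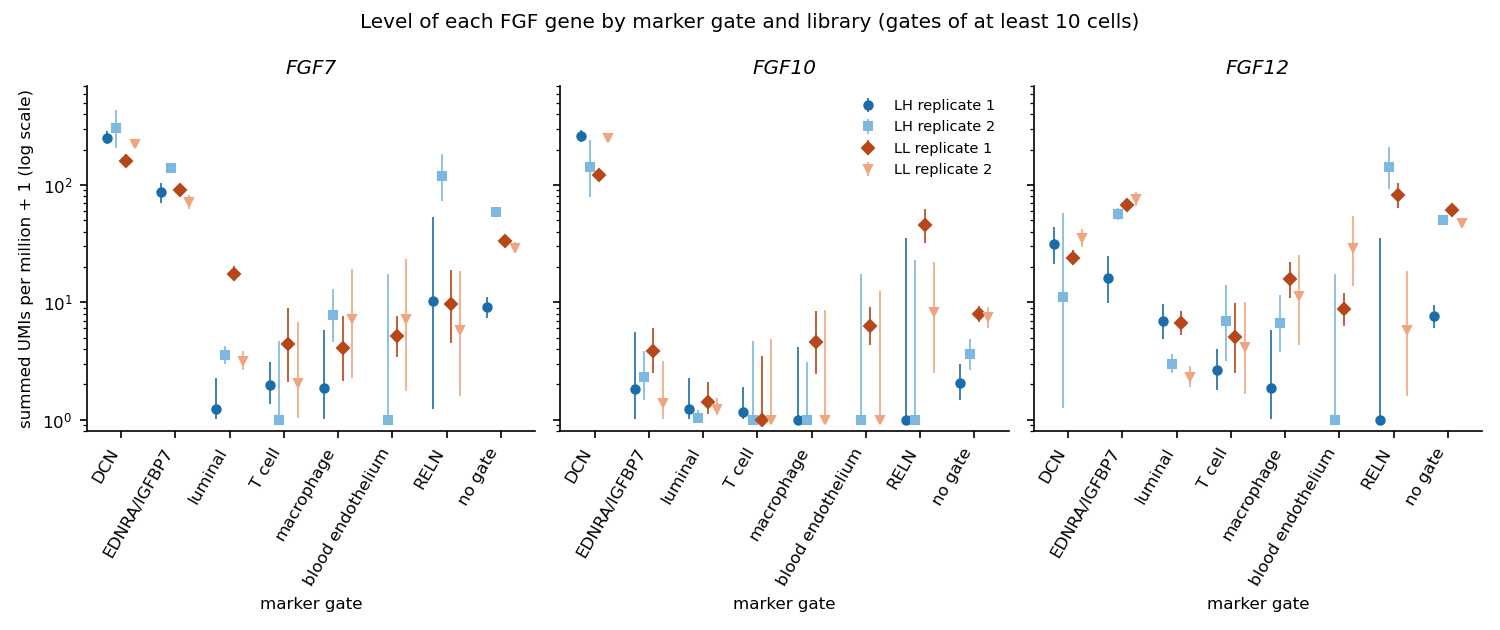
Level of FGF7, FGF10 and FGF12 in each marker gate, as summed UMIs in CPM + 1 on a log axis, 1 point per library and bars for 95% Poisson intervals. FGF7 is high in both stromal gates, FGF10 in the DCN gate with 120 to 263 CPM in the 4 libraries, and FGF12 is spread over several gates and the cells of no gate.

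In edgeR's quasi-likelihood test on counts summed per gate and ewe, with the ewe as a block and Benjamini-Hochberg adjustment over 13045 genes, FGF7 was higher in the DCN gate than in the mean of the non-stromal gates by 6.83 ± 0.66 (log2, SE; adjusted p = 9.8e-09). It was also higher in the EDNRA/IGFBP7 gate, by 5.61 ± 0.67 (adjusted p = 4.2e-07). These comparisons call 35.4% and 33.1% of all genes tested, so a call in itself is common, and the medians over all genes are 0.3 and 0.34. Between both stromal gates, where 31.4% of genes are called, FGF7 was 1.22 ± 0.53 higher in the DCN gate on the log2 scale but did not pass the threshold (adjusted p = 0.0823). That call depended on the libraries and the gate: without LL replicate 1 the difference was 1.39 with an adjusted p of 0.0279, and with cells of several gates kept in the stromal gate it was 1.75 with an adjusted p of 0.0176. Without LH replicate 2, whose DCN gate is the 31 cells above, the differences were 7.09, 5.72 and 1.37. Leaving out LL replicate 1 moved the differences from the non-stromal gates most, to 5.90 and 4.51 (adjusted p = 3.9e-09 and 1.6e-07). The non-stromal mean weights its gates equally, and the mast cell gate entered it only through 38 cells of LL replicate 1. Leaving out that library therefore also took this gate, with 0 FGF7 UMIs, out of the mean.

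FGF10 was concentrated in the DCN gate. Its level there was 263 CPM in LH replicate 1, 143 in LH replicate 2, 120 in LL replicate 1 and 252 in LL replicate 2, a mean of 194 ± 73.5 CPM (SD, n = 4 ewes). EDNRA/IGFBP7-gated cells held 0.832, 1.3, 2.88 and 0.39 CPM, which is 1, 6, 12 and 1 UMIs. Every library was lower there than in its DCN gate, and the ranges did not overlap. The DCN gate held 87.6, 28, 74.6 and 84.3% of each library's FGF10 UMIs. LH replicate 2 was the exception: the whole library had 50 FGF10 UMIs, 24 of them in 11 cells of no gate and 8 of those in 1 cell.

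The positive share for FGF10 in the DCN gate was 36.8, 12.9, 18.2 and 31%, and 17.8, 8.82, 9.39 and 17.7% after thinning to 1000 UMIs. For EDNRA/IGFBP7-gated cells the unthinned share was 0.41, 0.195, 0.679 and 0.106%, and after thinning it was 0.0152, 0.112, 0.21 and 0.00919%. T cells held 0.163 CPM in LH replicate 1 and no FGF10 UMI in the other libraries, where the counts of thinned T cells allow a share of up to 1.18, 0.785 and 1.09%. The thinned FGF10 shares of the EDNRA/IGFBP7 gate lay within those limits, which are wide because few T cells were counted. By level, the 2.88 CPM of LL replicate 1 had an interval of 1.49 to 5.03 CPM, and T cells of that library allow up to 2.51 CPM.

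By mean level the order for FGF10 was DCN, RELN, cells of no gate, blood endothelium, EDNRA/IGFBP7, macrophage, luminal and T cell, and only DCN stood clear of its neighbour. The RELN mean comes mainly from LL replicate 1, with 44.7 CPM, against 0, 0 and 7.24 CPM in LH replicates 1 and 2 and LL replicate 2. Its 36 UMIs lay in 7 cells, 16 of them in 1 cell, and without that cell the level was 25.2 CPM. Per 100 DCN UMIs these RELN-positive cells held 61 FGF10 UMIs, against 0.741 in the DCN gate of the same library.

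The edgeR test gave FGF10 a difference of 8.24 ± 0.51 between the DCN gate and the mean of the non-stromal gates (log2, SE; adjusted p = 6.1e-12) and of 6.85 ± 0.58 between the DCN and EDNRA/IGFBP7 gates (adjusted p = 3.1e-09). Without LH replicate 2 these were 7.98 and 7.02, and without LL replicate 1 they were 10.14 and 7.50 (adjusted p = 8.5e-11 and 6.6e-08). The fit without LL replicate 1 also had no mast cell gate in the non-stromal mean. As several non-stromal gates hold 0 or a few FGF10 UMIs, the size of the first difference depends on the prior count of the fit and is no bound. Between the EDNRA/IGFBP7 gate and the non-stromal gates the FGF10 difference was smaller than its error (1.39 ± 1.73, adjusted p = 0.639).

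Within the DCN gate FGF10 and FGF7 followed DCN itself differently. Cells were divided into those with 5 to 9, 10 to 29, 30 to 99 and 100 or more DCN UMIs, leaving out LH replicate 2 with its 31 cells. FGF10 was 317, 364, 237 and 266 CPM in LH replicate 1, 141, 213, 120 and 71.7 CPM in LL replicate 1, and 361, 404, 241 and 153 CPM in LL replicate 2. In all 3 libraries FGF10 was highest in the cells with 10 to 29 DCN UMIs and lower in both bins above it. The bin of 5 to 9 held only 9, 92 and 51 cells, and its intervals overlapped those of the bin of 10 to 29. Below the gate, ungated cells with 3 or 4 DCN UMIs held 57.4, 66.8 and 619 CPM of FGF10. The 619 CPM of LL replicate 2 (33 cells) lay above every bin of its gate, so no peak is set there. FGF7 was 212, 159, 221 and 327 CPM, 129, 200, 158 and 153 CPM, and 236, 194, 233 and 211 CPM in the same order. It showed no order common to the 3 libraries. Depth moved with DCN: in LL replicate 1 the median rose from 1392 to 5761 UMIs per cell between the lowest and highest bins, and its part in the FGF10 pattern was not tested.

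**Figure D2:**
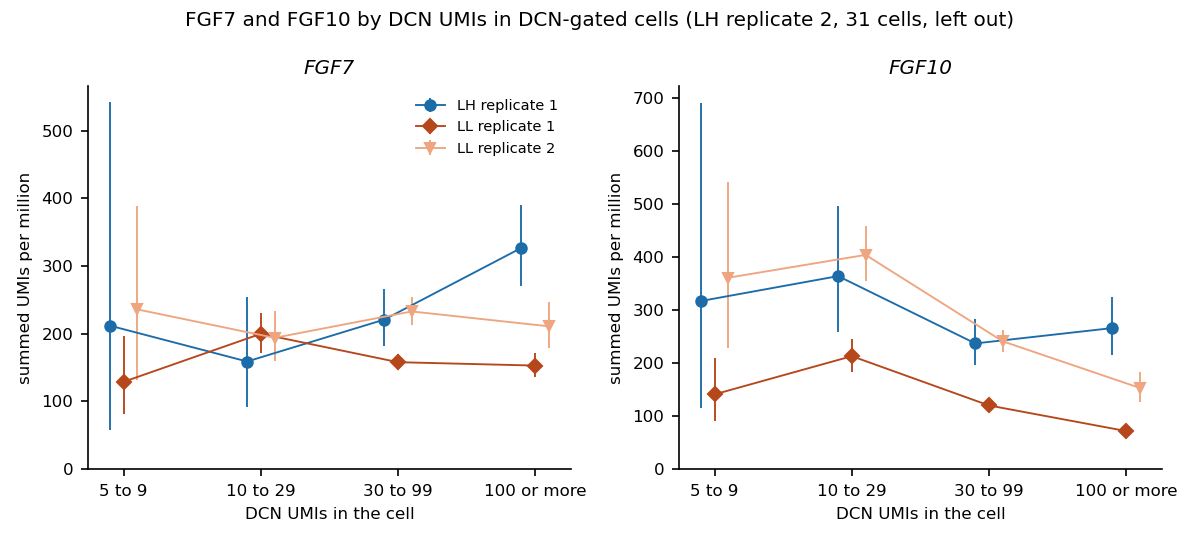
FGF7 and FGF10 levels (summed UMIs in CPM, bars 95% Poisson intervals) in DCN-gated cells by their DCN UMIs, 1 line per library, LH replicate 2 left out. Among the bins shown, FGF10 is highest at 10 to 29 DCN UMIs in the 3 libraries, at 364, 213 and 404 CPM. The intervals of the bin of 5 to 9 overlap it, and cells below the gate are not shown. FGF7 has no shared order.

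Most DCN-gated cells with FGF7 had no FGF10 UMI. Both genes were detected in 37, 3, 153 and 156 cells, which is 16.6, 9.68, 7.77 and 13.5% of the gate. Independent detection at the same 2 shares would give 33.1, 1.55, 130 and 134 cells, so observed over expected was 1.12, 1.94, 1.17 and 1.16. Among FGF7-positive cells 41.1, 25, 21.4 and 36% were FGF10-positive, against 33.8, 5.26, 16.4 and 27.9% of FGF7-negative cells. FGF10 was thus detected more often beside FGF7 in all 4 libraries, by a modest margin in the 3 libraries with over 200 cells.

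Double-positive cells were the deeper ones. They had a median of 5960, 4757, 3909 and 3254 UMIs, against 3128, 1456, 3179 and 2289 in cells with neither gene. With the expected number taken within 10 strata of depth, the ratio was 0.983, 1.00, 1.15 and 1.10. With all cells thinned to 1000 UMIs it was 0.99, 1.45, 1.24 and 1.15, where LH replicate 2 has 24 cells. Requiring 2 UMIs of each gene gave 1.22, 2.07, 1.47 and 1.44, where the 2.07 of LH replicate 2 is 1 cell against 0.484 expected. Across these settings LL replicates 1 and 2 stayed above 1, and LH replicate 1 lay on either side of it. Within depth strata the LL ratios are 153 cells against 133 expected and 156 against 141. No counting interval is given for these ratios, so a small excess is not set apart from counting error. No test was made, because cells of 1 library are not replicates.

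**Figure D3:**
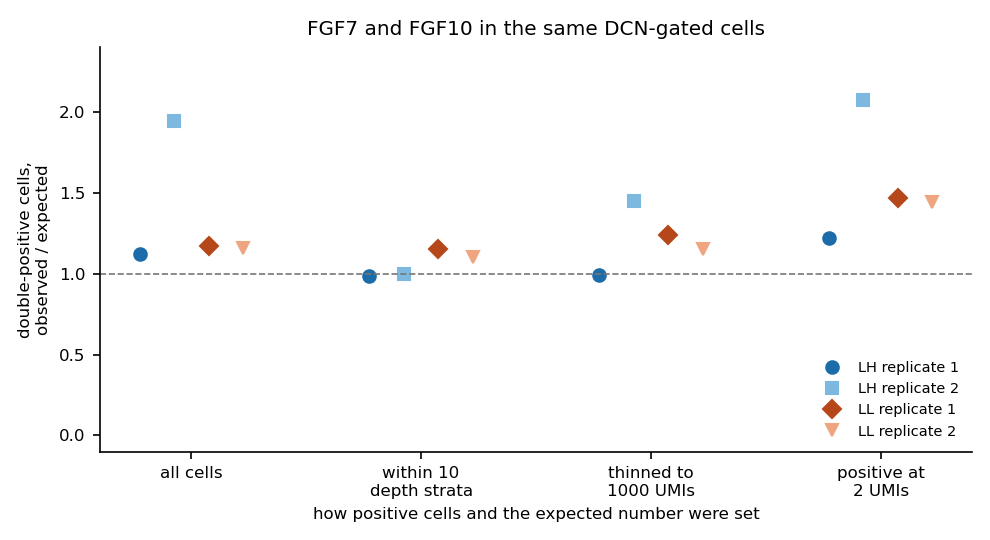
Cells with both FGF7 and FGF10 in the DCN gate, as observed over expected number, for 4 ways of setting positive cells and the expected number, 1 point per library. The dashed line at 1 is independent detection; LL replicates 1 and 2 lie above it in all 4, LH replicate 1 at 1.12, 0.983, 0.99 and 1.22.

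Levels were then compared on counts summed per ewe. FGF7 was 269, 618, 197 and 260 CPM in FGF10-positive cells of the DCN gate and 241, 230, 153 and 202 CPM in FGF10-negative cells, higher in 4 of 4 libraries. The edgeR difference with the ewe as a block was 0.29 ± 0.12 (log2, SE; adjusted p = 0.243), in a comparison that calls 2.21% of genes. FGF10 was 288, 160, 140 and 278 CPM in FGF7-positive cells and 237, 121, 106 and 233 CPM in FGF7-negative cells, also higher in 4 of 4. LH replicate 2 adds little to either count, with 4 FGF10-positive and 12 FGF7-positive cells. The edgeR difference for FGF10 was 0.31 ± 0.10 (adjusted p = 0.755), where 0.0628% of genes are called. Neither passed the threshold after adjustment over all genes.

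The UMIs were spread over many cells in the libraries with most fibroblasts. The 10 highest cells of the DCN gate held 36.8, 100, 14.2 and 13.4% of its FGF10 UMIs and 31.9, 93.3, 6.79 and 9.21% of its FGF7 UMIs. FGF10 reached 18, 5, 26 and 19 UMIs in 1 cell, and 36, 3, 112 and 101 cells held 3 or more. FGF7 reached 16, 7, 13 and 11 UMIs, and 36, 4, 102 and 71 cells held 3 or more.

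FGF12 had another distribution. EDNRA/IGFBP7-gated cells held 15 CPM in LH replicate 1, 55.9 in LH replicate 2, 66.9 in LL replicate 1 and 75.7 in LL replicate 2 (18, 258, 279 and 194 UMIs), a mean of 53.4 ± 26.8 CPM (SD, n = 4 ewes). DCN-gated cells held 30.2, 10.2, 23.1 and 34.6 CPM, a mean of 24.5 ± 10.7 CPM. LH replicate 1 was lower in the EDNRA/IGFBP7 gate than in the DCN gate, and the other 3 libraries were higher there. T cells held 1.63, 5.96, 4.08 and 3.13 CPM and luminal cells 5.88, 1.99, 5.73 and 1.33 CPM.

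After thinning to 1000 UMIs, 1.7, 5.32, 6.01 and 6.49% of EDNRA/IGFBP7-gated cells and 2.6, 1.38, 2.3 and 3.04% of DCN-gated cells were FGF12-positive, against 0.157, 0.333, 0.278 and 0.303% of T cells. Unthinned, 3.28, 11.7, 13.9 and 13.3% of the EDNRA/IGFBP7 gate were positive. FGF12 was higher in the EDNRA/IGFBP7 gate than in the mean of the non-stromal gates by 2.19 ± 0.46 (log2, SE; edgeR, adjusted p = 6.3e-04). For the DCN gate the edgeR difference was 1.20 ± 0.55 (adjusted p = 0.0982). It passed the threshold without LL replicate 1 (1.98, adjusted p = 0.0364), with the non-stromal gates summed per library (2.48, adjusted p = 0.00547), and with a broader EDNRA/IGFBP7 gate (1.38, adjusted p = 0.039). Leaving out LL replicate 1 also took the mast cell gate out of the non-stromal mean, whose 38 cells there held 92.1 CPM of FGF12. The difference between both stromal gates was -0.99 ± 0.61 (DCN against EDNRA/IGFBP7, adjusted p = 0.236), and with the broader EDNRA/IGFBP7 gate -1.44 (adjusted p = 0.0422).

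By mean level the order for FGF12 was RELN, EDNRA/IGFBP7, cells of no gate, DCN, blood endothelium, macrophage, luminal and T cell, and every neighbouring pair overlapped in range over libraries. The RELN gate ranged from 0 CPM in LH replicate 1 through 4.83 in LL replicate 2 and 81.9 in LL replicate 1 to 142 CPM in LH replicate 2, so its mean describes no library. Mast cells were numerous enough in LL replicate 1 alone, where 4 of 38 cells held 9 FGF12 UMIs, or 92.1 CPM.

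Splitting the EDNRA/IGFBP7 gate by TPM1, a tropomyosin of contractile filaments, separated FGF7 from FGF12. FGF12 was 8.64, 31.5, 36.2 and 39.9 CPM in cells with 3 or more TPM1 UMIs and 36.1, 118, 109 and 110 CPM in cells with fewer, so it was lower in TPM1-high cells in 4 of 4 libraries. The edgeR difference was -1.62 ± 0.14 (log2, SE; adjusted p = 1.2e-07), in a comparison that calls 15.7% of genes. FGF7 went the other way: 85.4, 150, 105 and 82.2 CPM in TPM1-high cells against 86.6, 109, 66.9 and 60.3 CPM in TPM1-low cells, higher in 3 of 4 libraries and level in LH replicate 1. Its difference was 0.53 ± 0.12 (adjusted p = 0.00384).

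The FGF7 call did not hold without LH replicate 2 (0.52, adjusted p = 0.0675) or without LL replicate 1 (0.46, adjusted p = 0.0674). One TPM1-high cell of LL replicate 1 held 43 FGF7 UMIs, and without it that level was 87.7 CPM in place of 105. Among TPM1-low cells, those with FABP4, which carries fatty acids in fat cells and small-vessel endothelium, held 157, 129, 113 and 118 CPM of FGF12 and 0, 74.6, 46.1 and 59.2 CPM of FGF7. TPM1-low cells without FABP4 held 20.4, 116, 105 and 105 CPM of FGF12 and 97.9, 113, 84.2 and 60.9 CPM of FGF7. The FABP4-positive class had 10 cells in LH replicate 1 and 58, 230 and 199 in the other libraries, so its values in LH replicate 1 rest on few UMIs.

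**Figure D4:**
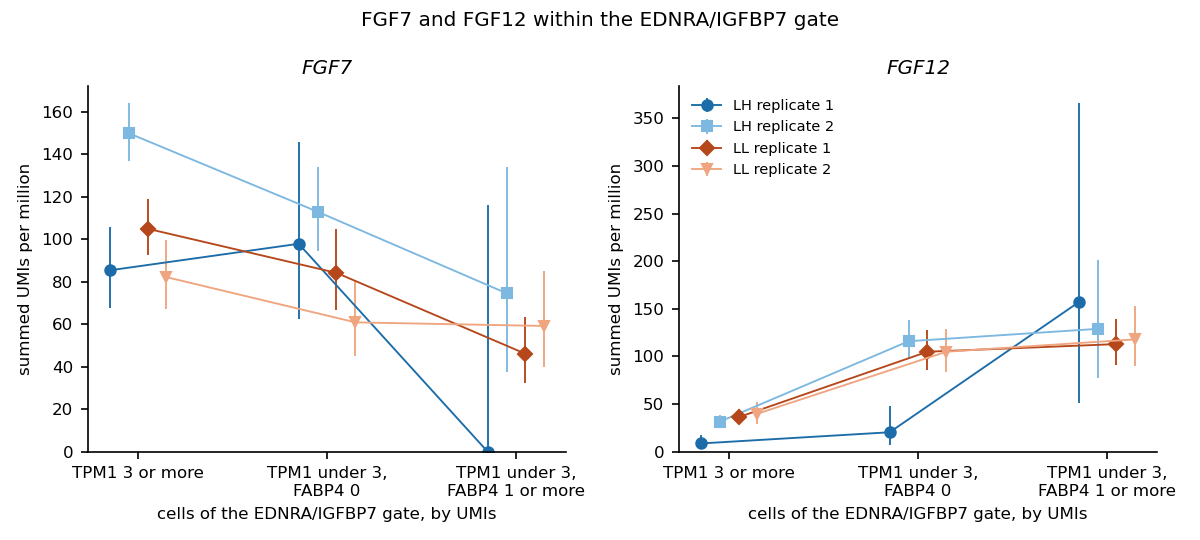
FGF7 and FGF12 levels (summed UMIs in CPM, bars 95% Poisson intervals) in the EDNRA/IGFBP7 gate divided by TPM1 and FABP4 UMIs, 1 line per library. FGF12 is lowest in the TPM1-high cells of each library, at 8.64 to 39.9 CPM, and FGF7 is highest there in 3 of 4 libraries. In LL replicate 1 the FGF7 value there includes 1 cell with 43 UMIs. Without that cell it is 87.7 CPM, against 84.2 CPM in TPM1-low cells without FABP4.

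Cells with both FGF7 and FGF12 were counted in the same way. Observed over expected double-positive cells of the DCN gate were 1.39, 2.58, 1.4 and 1.09, with 1 FGF12-positive cell in LH replicate 2, and within depth strata 1.14, 3, 1.29 and 0.986. For the EDNRA/IGFBP7 gate they were 1.22, 0.834, 0.930 and 0.626, above 1 in LH replicate 1 alone. For DCN-gated cells FGF10 and FGF12 gave 1.36, 0, 1.28 and 1.52, with no double-positive cell among the 31 of LH replicate 2.

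No member passed a test between peak and late lactation with all 4 ewes. FGF7 averaged 280 ± 38.9 CPM in LH and 192 ± 43.1 CPM in LL in the DCN gate (SD, n = 2 ewes each), and the stages did not overlap. An exact two-sided permutation test over the 6 arrangements of the libraries gave p = 0.333, the smallest it allows. The share of FGF7-positive cells at 1000 UMIs did overlap, at 18.5 ± 1.63% in LH and 16.4 ± 3.18% in LL. FGF10 averaged 203 ± 84.9 CPM and 186 ± 93.3 CPM in the DCN gate. Its ewes differed within each stage by more than the stages differed, 263 and 143 CPM in LH against 120 and 252 CPM in LL.

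FGF7 in the EDNRA/IGFBP7 gate averaged 112 ± 37 CPM in LH and 80 ± 12.7 CPM in LL, with overlap. Its share at 1000 UMIs was 10.5 ± 2.45% in LH and 7.25 ± 0.488% in LL without overlap (exact permutation p = 0.333). FGF12 averaged 35.5 ± 28.9 CPM in LH and 71.3 ± 6.22 CPM in LL without overlap, again at the smallest possible p of 0.333. The LH mean of FGF12 combines 15 and 55.9 CPM, and LH replicate 1 lies apart from the other 3 libraries. The gate also differed in make-up: 173 of 244, 965 of 1539, 602 of 1179 and 384 of 939 cells held 3 or more TPM1 UMIs. Cells with fewer held 36.1, 118, 109 and 110 CPM of FGF12, so there LH replicate 2 was not below the LL libraries. TPM1-high cells held 8.64, 31.5, 36.2 and 39.9 CPM, where the stages did not overlap. The part of this make-up in the stage difference was not tested.

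The edgeR fits by stage called none of the members. For the DCN gate, where all 3 members passed the filter on low counts and 0.0102% of 9827 genes are called, the differences of LL from LH were -0.55 ± 0.26 for FGF7 (adjusted p = 0.947), -0.32 ± 0.41 for FGF10 (adjusted p = 0.992) and 0.00 ± 0.45 for FGF12 (adjusted p = 1). The direction for FGF10 turned without LH replicate 1 (0.51) and without LL replicate 1 (0.16). For the EDNRA/IGFBP7 gate, with 0.0192% of 10417 genes called, they were -0.45 ± 0.27 for FGF7 and 0.97 ± 0.52 for FGF12 (both adjusted p = 0.803), and FGF10 fell below the filter. Without LH replicate 2, which leaves LH replicate 1 as the lone LH library, FGF12 was 2.26 ± 0.32 higher in LL (adjusted p = 0.00221). That lone library, at 15 CPM, is assumed to vary as the LL libraries do, which alone give the spread. Without LH replicate 1 the FGF12 difference was 0.38 ± 0.21 (adjusted p = 0.574).

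Whether the stage difference differs between both stromal gates was tested with edgeR's interaction term, which was -0.20 ± 0.39 for FGF7, -0.77 ± 1.10 for FGF10 and -1.65 ± 0.67 for FGF12 (adjusted p = 1, 0.985 and 0.857). That fit called 0 of 11202 genes (0%), of which 632 had an unadjusted p under 0.05, FGF12 among them at 0.0405. On counts simulated for the 10417 genes of the EDNRA/IGFBP7 gate the stage fit recovered 16.4% of genes changed 2-fold and 90% of those changed 4-fold. Those counts had the same fixed spread for every gene, and only genes above a minimum expected count were changed. The spread of the members between ewes was not simulated, so these shares need not hold for them. The fit in the DCN gate was not simulated.

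**Figure D5:**
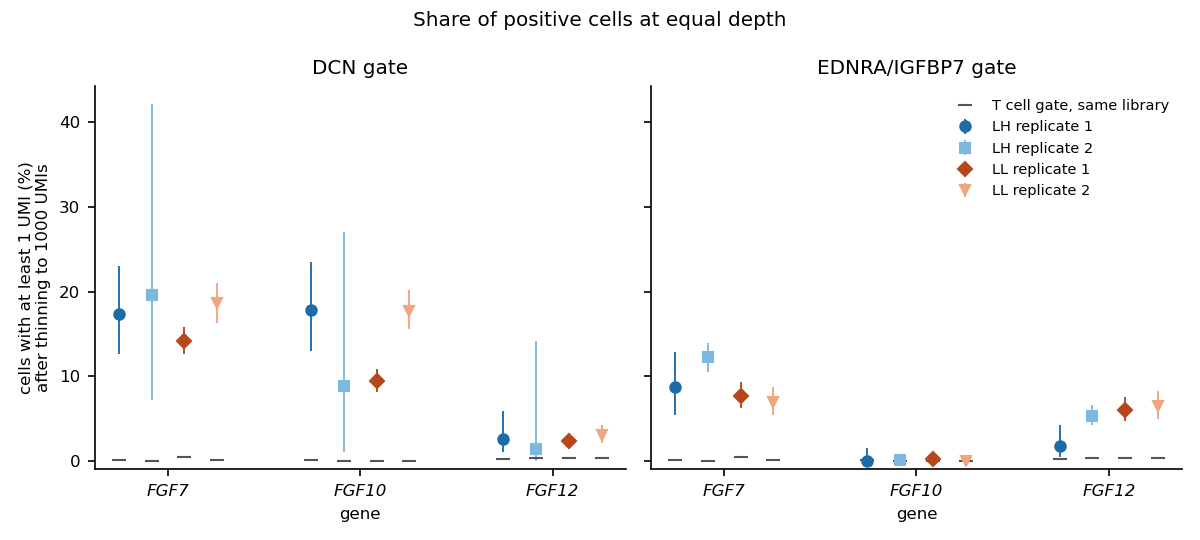
Share of cells with at least 1 UMI of each gene after thinning to 1000 UMIs, in the DCN gate (left) and the EDNRA/IGFBP7 gate (right), 1 point per library with 95% binomial intervals and short grey lines for T cells of the same library. LH (blue) and LL (red) libraries overlap for all genes in the DCN gate, where FGF10 is 17.8 and 8.82% in LH and 9.39 and 17.7% in LL.

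Among other genes of the FGF system, FGF ligands had a symbol for 3 of 18 listed genes, FGF receptors, co-receptors and heparan sulfate proteoglycans for 0 of 24, and signalling and feedback genes for 3 of 38. The receptors of FGF7 and FGF10 were therefore not analysed here. FGF2, a ligand without a classical secretion signal that acts widely on mesenchyme, was higher in luminal cells than in either stromal gate in 4 of 4 libraries: it was 285, 204, 306 and 271 CPM in the DCN gate, 324, 182, 240 and 206 CPM in the EDNRA/IGFBP7 gate and 815, 517, 564 and 551 CPM in luminal cells. Against the mean of all non-stromal gates FGF2 was still higher in both, by 0.70 in the DCN gate and 0.65 in the EDNRA/IGFBP7 gate (log2; edgeR, adjusted p = 0.00695 and 0.0117). Of all genes, those comparisons call 35.4% and 33.1%, with medians of 0.3 and 0.34, so the calls say little about FGF2. MYC, FOS and EGR1, genes that growth factor signals induce within minutes to hours, were each lower in the DCN than in the EDNRA/IGFBP7 gate (3 of 3 called lower, where 16.5% of all genes are; median -1.82 against -0.01 over all genes tested). MYC, a transcription factor of cell growth, was 51.3, 71.5, 43 and 55.9 CPM in the DCN gate and 90.6, 215, 201 and 197 CPM in the EDNRA/IGFBP7 gate. FOS averaged 1761 CPM in the DCN gate, 7631 CPM in the EDNRA/IGFBP7 gate, 4325 CPM in luminal cells and 5327 CPM in macrophages. What induced these genes was not tested.

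Of 55 other paracrine growth factors and their antagonists 10 had a symbol. Between the DCN and EDNRA/IGFBP7 gates 3 were higher, 5 were lower and 2 did not pass the test, where 14.9% of all genes are called higher and 16.5% lower, with a list median of -2.01. The higher ones were SFRP2, a secreted WNT antagonist (193, 81.8, 125 and 194 CPM in the DCN gate against 2.49, 1.08, 3.12 and 1.95), BMP4, a bone morphogenetic protein (38.2, 61.3, 79.9 and 99.7 CPM against 9.98, 17.1, 23.8 and 17.9), and the ligand WNT2. The lower ones were IL6, VEGFA, INHBA, EDN1 and PDGFB, while TGFB1 and MSTN did not pass. VEGFA, the main endothelial growth factor, was 9.05, 0, 8.34 and 10.1 CPM in the DCN gate and 29.1, 78.5, 30 and 37.4 CPM in the EDNRA/IGFBP7 gate. Of 7 receptors of such factors 2 were higher in the DCN gate (ACVR2A and BMPR1B), 1 was lower (MET) and 4 did not pass the test (BMPR1A, BMPR2, CXCR4 and KDR).

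The genes most like each member were found over 24 profiles of gate and library with at least 50 cells, among 464 genes with a symbol that define no gate. These are descriptive Pearson correlations of log2(CPM + 5), and the profiles share libraries and depth. For FGF7 they were SNAI2 (r = 0.946), BGN (0.932), AGTR1 (0.905), HOXC6 (0.903) and CRY2 (0.893). SNAI2, a transcription factor of mesenchymal and basal cells, was 12.1, 20.4, 17.1 and 21.3 CPM in the DCN gate and 17.5, 15.2, 13.4 and 14 CPM in the EDNRA/IGFBP7 gate. For FGF10 they were TTR (0.965), SERPINF1 (0.936), MMP2 (0.931), SFRP2 (0.895) and HSD11B1 (0.855). TTR, which encodes the thyroid hormone carrier transthyretin, was 157, 143, 79.8 and 154 CPM in the DCN gate and 0, 0, 0.24 and 0.39 CPM in the EDNRA/IGFBP7 gate. For FGF12 the values were lower: AK1 (0.819), ITGB1 (0.814), SPARC (0.803), IGFBP6 (0.784) and REM1 (0.780). Between the members r was 0.594 for FGF7 and FGF10, 0.736 for FGF7 and FGF12, and 0.349 for FGF10 and FGF12.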

How the data were processed

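Counts are the deposited UMI counts per gene and barcode of 4 libraries, filtered matrices written by Cell Ranger 7.2.0 per the file headers, while the submitters' processing notes name STAR, Seurat 3.2.0 and Cell Ranger 5.0.1. Build and gene annotation are not given in the sources used here, so no coordinates or sequences are printed. Replicates are separate ewes.

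Barcodes with over 20% mitochondrial UMIs (13 genes) and doublets called by Scrublet (scanpy 1.11.5, expected rate 6%; 3.71 to 4.97% per library) were left out. For LH replicate 1 no automatic doublet threshold was found, and the median of the others was used. No clustering was done. Luminal cells had at least 2 UMIs of EPCAM and CLDN4 together, T cells 2 of CD3E, CD247 and LCK, macrophages 2 of C1QA and MRC1, endothelium 2 of SELP, SELE and KDR, RELN-positive cells 2 of RELN, and mast cells 5 of TPSB2. Thinned shares are the mean over all possible draws of 1000 UMIs per cell.

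Counts were summed per gate and library with at least 10 cells (splits within a gate had no minimum) and tested with edgeR 4.0.16 (TMM, filterByExpr minimum count 10, adjusted p threshold 0.05), with the ewe as a block between gates, after tests on simulated data. On the 10255 genes of both stromal gates the gate fit recovered 53.3% of genes changed 2-fold and 98.2% of those changed 4-fold. The simulated counts had the same fixed spread for every gene. Alternatives included DESeq2 1.42.0, other size factors, gates and filters.

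Members and lists were chosen with earlier results of these data known. The members are always named, list genes with at least 10 CPM in a stromal gate may be named (at most 8 per list), and the 5 most alike genes are named by correlation. Genes named to spell out a count of 5 or fewer were chosen after their values were seen.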

Additional observations from a re-analysis of the deposited data

Results flagged for a closer look

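Cells that passed no marker gate enter none of the stage or gate tests. FGF7 and FGF12 were found there above the level of T cells in every library, and FGF10 in the LL libraries. FGF7 was 8.08 CPM in LH replicate 1, 57.4 in LH replicate 2, 32.1 in LL replicate 1 and 28.2 in LL replicate 2, against 0.976, 0, 3.4 and 1.04 CPM in T cells. The ungated cells held 14.3, 39.2, 20.4 and 22% of the FGF7 UMIs of their library. FGF10 was 6.99 CPM in LL replicate 1 and 6.45 CPM in LL replicate 2, against 0 in T cells, and made up 10 and 7.11% of the FGF10 UMIs. Of these 118 and 72 UMIs, 22 and 26 lay in cells with 3 or 4 DCN UMIs, just under the DCN gate. In LH replicates 1 and 2 FGF10 was 1.04 and 2.61 CPM, with intervals that overlapped those of T cells.

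FGF12 was 6.58, 49.8, 60.1 and 46.2 CPM in cells of no gate in LH replicates 1 and 2 and LL replicates 1 and 2, against 1.63, 5.96, 4.08 and 3.13 CPM in T cells, and the ungated cells held 33.9, 53.9, 56.9 and 55.6% of the FGF12 UMIs. It was higher where IGFBP7 was higher: 2.78, 22, 30.5 and 18.9 CPM in cells without IGFBP7 UMIs and 46.7, 80.7, 111 and 109 CPM in cells with 3 or more.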

How the results depend on the processing

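With 2 ewes a stage, the stage counts of called genes rest on single libraries. In the DCN gate 1 gene was called; the count was 138 with no filter on low counts, 0 with cells of several gates kept, 9 with the broader EDNRA/IGFBP7 gate, 63 with the replicate block, 6 with DESeq2 and 3 to 56 with 1 library left out. In the EDNRA/IGFBP7 gate 2 genes were called; it was 1 with RLE size factors, with the 10% mitochondrial limit and with the DCN gate at 3 UMIs, 121 with no filter, 0 with several gates kept, 39 with DESeq2, and 0 (without LL replicate 2) to 775 (without LH replicate 2) with 1 library left out. The stage difference between the gates called 0; it was 92 with no filter, 25 with the DCN gate at 10 UMIs, 35 with the broader gate and 1 to 44 with 1 library left out. The DCN against EDNRA/IGFBP7 count of 4099 was 2692 to 3738 with 1 library left out. The split by FGF10 called 170 genes (35 to 187 with 1 left out), that by FGF7 5 (35 with no filter, 3 to 8 with 1 left out), and that by TPM1 1303 (718 to 1473 with 1 left out), with FGF7 at 0.46 to 0.62.

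Signs turned only for differences that had not passed the threshold. For LL against LH in the DCN gate, FGF10 was -0.86 to 0.51 with 1 library left out. FGF12, at 0.00, was -0.23 to 1.62 with 1 left out, -0.02 with RLE, -0.04 at 10% mitochondrial, -0.13 with DCN at 10 UMIs, -0.16 with the stricter EDNRA/IGFBP7 gate and -0.25 with several gates kept. With 1 left out the interaction was -0.59 to 0.24 for FGF7 (0.05 with the broader gate), -2.00 to 1.95 for FGF10 and -2.54 to 1.22 for FGF12. The cause of each was not tested.

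Stage differences in thinned shares also turned. FGF7 in the DCN gate, at -2.1 percentage points, was -4.35 to 0.15 with 1 library left out. FGF10 in the DCN gate, at 0.235, was -0.25 unthinned, -1.95 at 2000 UMIs, -0.12 with doublets kept and -4.26 to 4.72 with 1 left out, and in the EDNRA/IGFBP7 gate, at 0.046, it was -0.0544 to 0.146. The observed over expected FGF7 and FGF10 cells of 1.17 and 1.16 in LL were 1.47 and 1.44 at 2 UMIs.

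Replicate numbers are not said to pair the ewes. Deviations of same-numbered libraries correlated at 0.03 in the DCN gate and -0.19 in the EDNRA/IGFBP7 gate. Such a correlation over genes of few libraries cannot show whether the numbers mark a pairing. With the replicate block FGF7 was -0.59, FGF10 -0.37 and FGF12 -0.02 in the DCN gate (adjusted p = 1 each), and FGF7 was -0.43 and FGF12 1.22 in the EDNRA/IGFBP7 gate (adjusted p = 0.966 both), where the block called 0 genes and the crossed replicate block, added after the data were seen, 4. The broader gate, the summed non-stromal gates and the depth strata were also added after the data were seen.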

Other observations

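Ungated cells with 1 or 2 FGF12 UMIs were compared with ungated cells without FGF12, a look chosen after the values were seen and not tested. FABP4 was 52.1, 127, 796 and 707 CPM in the cells with FGF12 in LH replicates 1 and 2 and LL replicates 1 and 2, and 7.48, 34.8, 161 and 157 CPM in those without. PPARG, the nuclear receptor that drives fat cell differentiation and is also active in endothelium, was 274, 262, 270 and 198 CPM against 34.7, 129, 98.7 and 101 CPM. IGFBP7 was 1212, 2570, 1806 and 1356 CPM against 146, 1109, 644 and 496 CPM. All 3 genes were higher beside FGF12 in 4 of 4 libraries. They were picked from a wider panel, of which other genes went the other way. KDR was lower in 4 of 4, at 0, 1.46, 4.86 and 5.88 CPM against 1.4, 6.76, 10.9 and 10.6 CPM. TPM1 was 274, 800, 397 and 355 CPM against 204, 972, 477 and 509 CPM, higher in LH replicate 1 alone.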
